A study of Rattus norvegicus with 415 samples.

Results

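Macrophages are immune cells that reside in fat, and 8 genes commonly used to mark them were followed through adipose tissue of outbred rats. The genes were Cd68 (ENSRNOG00000037563), Cd163 (ENSRNOG00000010253), Itgam (ENSRNOG00000019728), Aif1 (ENSRNOG00000000853), Cd14 (ENSRNOG00000017819), Csf1r (ENSRNOG00000018659), Adgre1 (ENSRNOG00000046254) and Spp1 (ENSRNOG00000043451). They were chosen by Ensembl identifier, and all 8 were among the 18358 genes of the deposited table. That table gave identifiers without symbols, and the pairing of the 8 identifiers with symbols came with the gene list. The tissue was snap-frozen adipose of Rattus norvegicus aged 17 weeks, and total RNA was sequenced as 75-bp single-end reads. The study mapped loci for metabolic traits and related them to gene expression. Its labels gave the adipose samples no treatment, genotype, sex, diet or fat depot, so that all samples formed 1 group and the comparisons were between genes across samples. The labels did not say whether samples came from separate animals, so that p-values measure the spread between these samples. Leptin, the hormone secreted by adipocytes, was not analysed here.

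Tissue macrophages come from embryonic precursors and from blood monocytes, and their survival depends on signalling through the receptor encoded by Csf1r. In fat they clear dying adipocytes, take up lipid and iron and remodel the matrix, and they become more numerous in obesity. The 8 genes stand for different functions of these cells: a growth factor receptor (Csf1r), an adhesion integrin (Itgam), surface receptors of resident and scavenging cells (Adgre1, Cd163), a receptor for bacterial lipopolysaccharide (Cd14), proteins of the lysosome and the cytoskeleton (Cd68, Aif1), and a secreted phosphoprotein (Spp1). In bulk tissue, fewer cells of a type and less RNA per cell cannot be told apart.

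Promoters are shown for 3 genes that co-varied and for Spp1, which varied over a wider range. Each is the 250 bases before the annotated start, from RefSeq on build GRCr8, written 5′ to 3′ on the gene's strand. Capitals mark the letters GAGGAA or, where a match lies on the other strand, their reverse complement TTCCTC. The former is the core of the motif of PU.1, a transcription factor of myeloid cells. The sequences lie at chr10:54882442-54882691 (minus strand) for Cd68, chr1:192089342-192089591 (plus strand) for Itgam, chr9:2329190-2329439 (plus strand) for Adgre1 and chr14:5619805-5620054 (minus strand) for Spp1.
Cd68: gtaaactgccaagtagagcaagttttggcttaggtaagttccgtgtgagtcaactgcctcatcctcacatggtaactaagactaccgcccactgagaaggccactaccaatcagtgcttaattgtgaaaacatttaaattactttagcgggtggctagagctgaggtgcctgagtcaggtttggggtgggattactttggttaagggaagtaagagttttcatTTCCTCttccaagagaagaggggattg
Itgam: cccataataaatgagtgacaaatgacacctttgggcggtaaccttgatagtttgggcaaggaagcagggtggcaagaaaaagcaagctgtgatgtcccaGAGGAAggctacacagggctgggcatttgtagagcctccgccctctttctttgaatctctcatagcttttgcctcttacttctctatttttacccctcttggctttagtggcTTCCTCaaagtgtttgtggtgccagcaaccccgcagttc
Adgre1: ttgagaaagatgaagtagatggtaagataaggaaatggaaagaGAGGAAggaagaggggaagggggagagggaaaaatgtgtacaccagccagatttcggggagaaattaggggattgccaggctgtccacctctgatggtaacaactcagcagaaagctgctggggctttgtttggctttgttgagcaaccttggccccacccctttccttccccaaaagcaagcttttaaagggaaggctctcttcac
Spp1: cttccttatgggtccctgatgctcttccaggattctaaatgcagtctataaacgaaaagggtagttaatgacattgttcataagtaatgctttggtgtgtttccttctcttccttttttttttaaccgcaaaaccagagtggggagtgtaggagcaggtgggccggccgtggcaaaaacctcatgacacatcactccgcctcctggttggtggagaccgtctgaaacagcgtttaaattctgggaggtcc

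RefSeq promoters were matched by symbol for 7 of the 8 genes, and the gene without one was Aif1. The letters GAGGAA, searched on both strands, occurred at least once in 5 of these 7 promoters. The same search found at least 1 match in 23.3% and at least 2 matches in 3.39% of 33465 rat promoters. Itgam, Cd14 and Csf1r each held 2 matches. Cd68 held 1 match 27 bases before its start on the opposite strand, and Adgre1 held 1 match on its own strand, farther from its start. Cd163 and Spp1 held 0 matches, which says only that these letters were not in this window. Cd163, whose sequence is not shown, co-varied with Cd68, Itgam and Adgre1, while Cd14 was tied to them weakly or not at all. Matches therefore did not separate the co-varying genes from the others.

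Reads assigned to genes ranged from 2139163 to 6248214 per sample, with a median of 4602134, and 12 samples were under 3500000 reads. Values were in FPKM (reads divided by gene length and by a depth factor of the sample), scaled between samples by the authors, and were analysed as log2(FPKM + 1). Genes were tested where 20% or more of the samples exceeded 1 FPKM, which kept 16131 genes, all 8 members among them. Each sample carried a title made of a number and a suffix, whose meaning was not given. Gaps of more than 500 between title numbers parted the samples into block 1 with 39 samples (9.40% of all), block 2 with 55.9% and block 3 with 34.7%, which are not groups of the study.

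A single library stood apart in these genes. The library titled 64199_4, in block 3, had the lowest level of all samples for Cd68 (16.5 FPKM), Cd163 (35.8 FPKM), Itgam (6.07 FPKM), Aif1 (11.5 FPKM) and Csf1r (15.5 FPKM). Its Adgre1 level of 19.5 FPKM was the second lowest and its Cd14 level of 46.1 FPKM ranked 6 from the lowest, whereas its Spp1 level of 138.1 FPKM was the highest. It was not among the shallow libraries, with 4927703 reads. Its median correlation with the other samples over all genes was 0.894, which ranked 5 from the lowest, against a median of 0.951 over the samples. Without this library, 22 pairs of the 8 genes were called in place of 21. Values without it are given below for some of the pairs only. Other pairs moved as well, such as Cd163 with Itgam from r = 0.37 to 0.34.

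Cd163, the scavenger receptor for haemoglobin bound to haptoglobin, had the highest level per gene length. Its lowest, median and highest values were 35.8, 76.96 and 111.7 FPKM. Cd14, the surface co-receptor that passes lipopolysaccharide to the Toll-like receptor complex, followed at 40.03, 62.6 and 93.9 FPKM. The ranges overlapped, and Cd163 was above Cd14 in 87.5% of samples. Cd14 exceeded Adgre1, the next gene by median, in 98.1% of samples.

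Adgre1, which encodes the adhesion receptor known in mouse as F4/80, ran from 16.2 through a median of 39.2 to 77.9 FPKM. Cd68, which encodes a heavily glycosylated lysosomal membrane protein, ran from 16.5 through 38.7 to 89.6 FPKM. These neighbours did not differ beyond their spread, since Adgre1 was above Cd68 in 49.9% of samples. Csf1r, the receptor for colony-stimulating factor 1 and interleukin 34, had a lowest, median and highest level of 15.5, 24.8 and 33.4 FPKM. Cd68 was above Csf1r in 99.3% of samples, which separated those neighbours in nearly all of them.

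Aif1, which encodes the calcium-binding, actin-linked protein IBA1, ranged from 11.5 through 19.5 to 42.3 FPKM, and Csf1r was above it in 88.9% of samples. Itgam, the integrin alpha M chain (CD11b), ranged from 6.07 through 14.5 to 35.04 FPKM and had the lowest median of the 8. Spp1 encodes the secreted phosphoprotein osteopontin, which several cell types besides macrophages make. Its level ranged from 0.731 through 18.02 to 138.1 FPKM. The median of Spp1 fell between those of Aif1 and Itgam, but Aif1 was above Spp1 in 54.7% of samples and Spp1 was above Itgam in 55.7%, so Spp1 did not differ from either neighbour beyond its own spread.

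**Figure D1:**
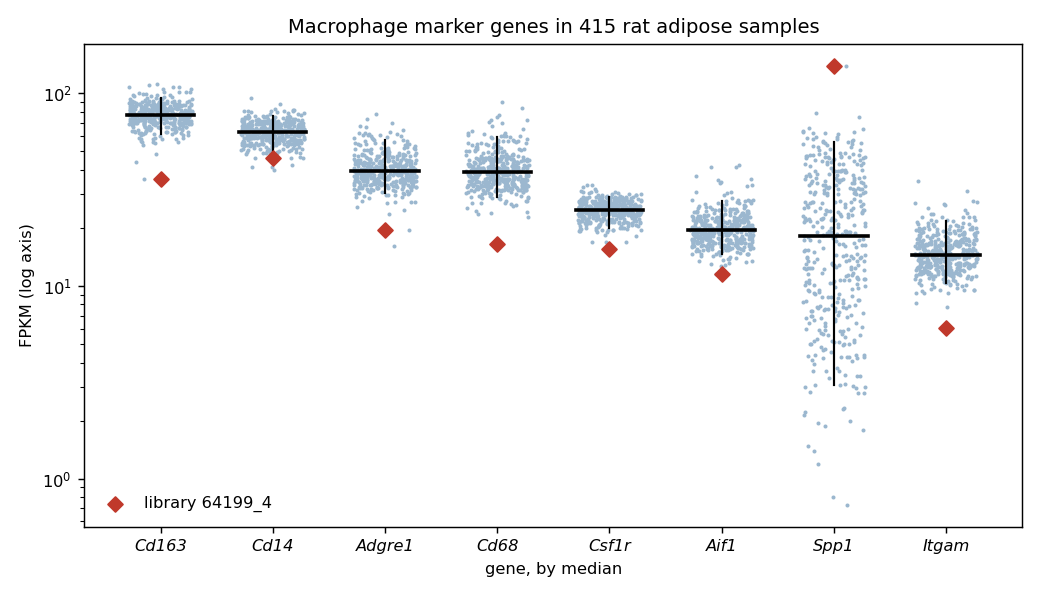
Level of each gene in every sample (FPKM, log axis), ordered by median; each point is 1 sample, the horizontal bar is the median and the vertical line runs from the 5th to the 95th percentile. Spp1 spreads from 0.731 to 138.1 FPKM, wider than the other 7 genes, and the library titled 64199_4 (red diamond) lies at or near the lowest value in every gene but Spp1, where it is the highest.

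Spp1 varied most between samples. Its SD on the log2(FPKM + 1) scale was 1.21, above that of 99.01% of all genes tested. The 95th percentile of Spp1 was 18.1 times the 5th (55.4 against 3.05 FPKM), with 51 samples under 5 FPKM and 32 over 50 FPKM. The second highest sample had 78.7 FPKM, so the library titled 64199_4 set the upper end alone but not the width of the distribution. Counting error made up 1.48% of the variance of Spp1, at a mean of 160.8 reads per sample, and the lowest sample held 5 reads.

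The other 7 genes varied about as much as most genes. Itgam and Cd68 had log2 SDs of 0.31, each above 64.1% of genes. Adgre1 (0.28) and Aif1 (0.27) were above 57.96% and 57.5% of genes. Cd163 (0.20), Cd14 (0.18) and Csf1r (0.16) lay under the median SD of all genes, 0.24. Csf1r was the steadiest of the 8, with a coefficient of variation in FPKM of 11.5% against 24.3% for Itgam and 78.2% for Spp1. Counting error made up 16.02% of the variance of Csf1r, 15.97% of that of Aif1 and at most 12.6% in the remaining genes.

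Across samples the 8 genes fell into a co-varying set of 6 genes and the pair of Cd14 and Spp1, which joined it weakly or not at all. Each gene of a pair served in turn as the regressor in limma, with Benjamini-Hochberg adjustment over all genes. A pair was called where both fits gave an adjusted p under 0.05. By this rule 20 of 28 pairs co-varied positively and 1 negatively. Over the 8 fits, 24.2% of all genes were called positive and 28.3% negative, counted in 1 fit at a time. Calls were thus frequent among all genes when these members were the regressors. The members' share of positive calls, 20 of 28, was above that background, but the list was chosen with earlier results of these data known.

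Cd68, Cd163, Itgam, Aif1, Csf1r and Adgre1 formed the set. The set was read from these same correlations, so the values describe it and do not test it. All 15 pairs among them were called positive, with Pearson r from 0.29 to 0.74 and a median of 0.46. For each of these pairs the permutation p of r and of Spearman's rho was 1e-05, the smallest that 100000 permutations can give. Within blocks 2 and 3 all 15 correlations were positive, from 0.29 to 0.73 and from 0.39 to 0.82. In block 1, with 39 samples, 14 of 15 were positive and that of Cd163 with Csf1r was -0.035.

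**Figure D2:**
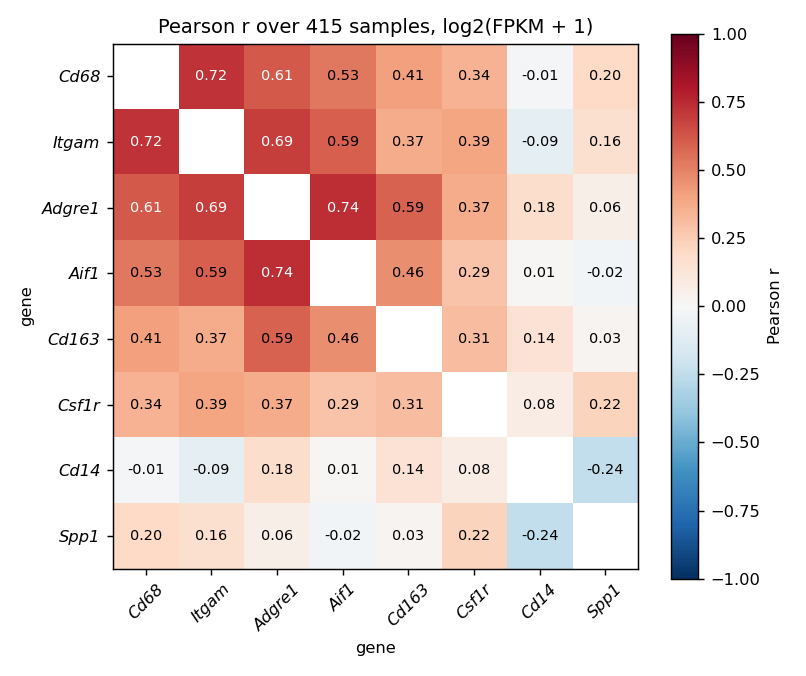
Pearson r of every pair of the 8 genes over all samples on log2(FPKM + 1) values (colour and number, scale from -1 to 1). The 15 pairs in the upper left square of 6 genes lie between 0.29 and 0.74, whereas the pairs with Cd14 or Spp1 lie between -0.24 and 0.22.

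Aif1 and Adgre1 had the closest relation over all samples, with r = 0.74 (95% confidence interval 0.69 to 0.78) and rho = 0.71. The limma adjusted p was 1.31e-69 with Aif1 as the regressor. The correlation was 0.77, 0.73 and 0.79 in blocks 1, 2 and 3, and 0.73 when the pair of samples with the most extreme Aif1 levels was left out. Samples high in the cytoskeletal gene were thus high in the surface receptor gene in every block. The order of the pairs changed with samples and scaling. Without samples under 3500000 reads, r was 0.70, against 0.75 for Cd68 with Itgam and 0.73 for Itgam with Adgre1. The same pairs had 0.70, 0.75 and 0.75 with quantile normalization, and 0.79, 0.80 and 0.82 in block 3.

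Cd68 and Itgam came next, with r = 0.72 (95% confidence interval 0.68 to 0.77) and rho = 0.67. The limma adjusted p was 1.03e-65 with Cd68 as the regressor. The correlation was 0.67, 0.69 and 0.80 in the 3 blocks, 0.70 without the pair of samples most extreme in Cd68 and 0.71 without the library titled 64199_4. Among 16130 other genes, Itgam ranked 13 by its correlation with Cd68, and Cd68 ranked 24 for Itgam.

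Itgam and Adgre1 followed with r = 0.69, and Cd68 and Adgre1 with r = 0.61. Aif1 had r = 0.59 with Itgam and r = 0.53 with Cd68. The 6 pairs of Cd68, Itgam, Aif1 and Adgre1 were thus the tightest group, with r from 0.53 to 0.74. Within blocks these 6 correlations ran from 0.33 to 0.77 in block 1, from 0.50 to 0.73 in block 2 and from 0.75 to 0.82 in block 3.

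Cd163 was closest to Adgre1 (r = 0.59, rho = 0.53), and Adgre1 ranked 36 of 16130 genes by its correlation with Cd163. Its correlations with Aif1, Cd68 and Itgam were 0.46, 0.41 and 0.37. Csf1r correlated more evenly with the other 5 genes of the set, with r from 0.29 (Aif1) to 0.39 (Itgam). With the library titled 64199_4 left out, r of Cd163 with Csf1r went from 0.31 to 0.27, and with the pair of samples most extreme in Cd163 left out it was 0.26.

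**Figure D3:**
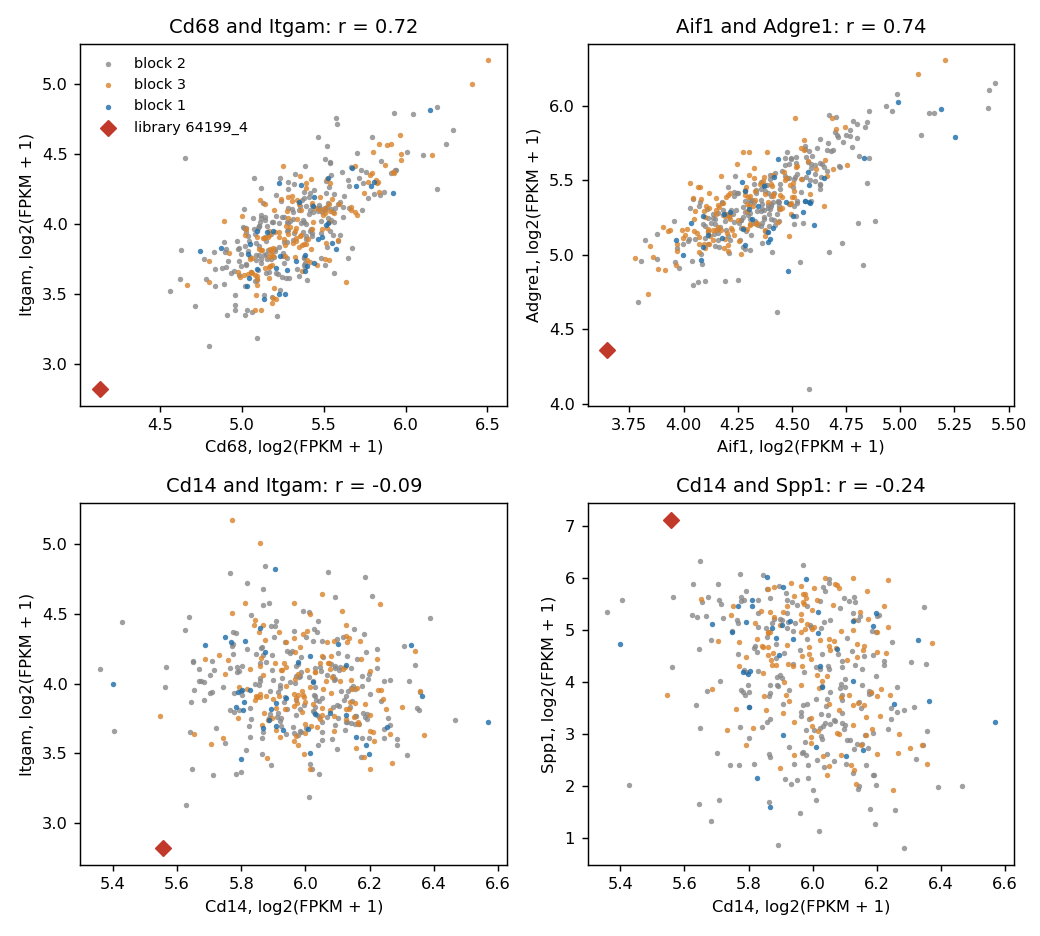
Samples plotted by log2(FPKM + 1) of 2 genes at a time; colours mark the 3 blocks of title numbers and the red diamond marks the library titled 64199_4. Cd68 with Itgam (r = 0.72) and Aif1 with Adgre1 (r = 0.74) form narrow clouds in each block, Cd14 with Itgam (r = -0.09) forms a round cloud, and Cd14 with Spp1 (r = -0.24) a loose falling one.

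Cd14 did not follow the set. It had r = -0.01 with Cd68, -0.09 with Itgam, 0.01 with Aif1 and 0.08 with Csf1r, and none of these 4 pairs was called. The 95% confidence intervals of these 4 correlations had -0.19 as their lowest and 0.17 as their highest bound. Leaving out the library titled 64199_4 brought Cd14 with Itgam to r = -0.11, called negative with a limma adjusted p of 0.039, and ranks gave rho = -0.13 with a limma adjusted p of 0.021. The title number as a factor keeps only variation within shared numbers, so that samples with an unshared number add nothing. With it Cd14 with Itgam was -0.31 (limma adjusted p = 0.010), whereas quantile normalization turned its sign (0.025, not called). The same normalization gave Cd14 with Csf1r as 0.21, called positive (limma adjusted p = 0.00014).

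Cd14 was called positive with Adgre1 (r = 0.18, permutation p = 0.00034; rho = 0.12, permutation p = 0.017) and with Cd163 (r = 0.14, permutation p = 0.0044; rho = 0.072, permutation p = 0.14). The relation of Cd14 with Cd163 did not hold on ranks, where the limma adjusted p was 0.23. Its r was 0.094 without the pair of samples most extreme in Cd163, and 0.21, 0.10 and 0.21 in blocks 1, 2 and 3, called in none of them. The relation of Cd14 with Adgre1 was 0.26, 0.21 and 0.11 in the 3 blocks and was called in block 2 only. With the title number as a factor it was 0.029 (limma adjusted p = 0.88).

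Spp1 was weakly tied to part of the set. It was called positive with Csf1r (r = 0.22), Cd68 (r = 0.20) and Itgam (r = 0.16), with permutation p of 1e-05, 6e-05 and 0.00079. Spearman's rho for the same 3 pairs was 0.21, 0.17 and 0.16. Spp1 had r = 0.03 with Cd163, -0.02 with Aif1 and 0.06 with Adgre1, and these 3 pairs were not called. The 3 positive relations were weakest in block 3, where r was 0.11 with Csf1r, 0.03 with Cd68 and 0.06 with Itgam and none was called, against 0.35, 0.42 and 0.32 in block 1. The difference between blocks was not tested.

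Spp1 and Cd14 were the only pair of the 28 called negative over all samples without covariates, with r = -0.24 (95% confidence interval -0.33 to -0.15) and rho = -0.25, each with a permutation p of 1e-05. The correlation was -0.22, -0.26 and -0.27 in blocks 1, 2 and 3, and -0.23 without the library titled 64199_4. The sign was the same in each block, but the pair was not called in block 1 (limma adjusted p = 0.57). With quantile normalization r was -0.14, and with log2 reads as covariate it was -0.21. Of all genes tested, 3.45% had a lower r with Spp1 than Cd14 had, and 8.51% had a lower r with Cd14 than Spp1 had.

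**Figure D4:**
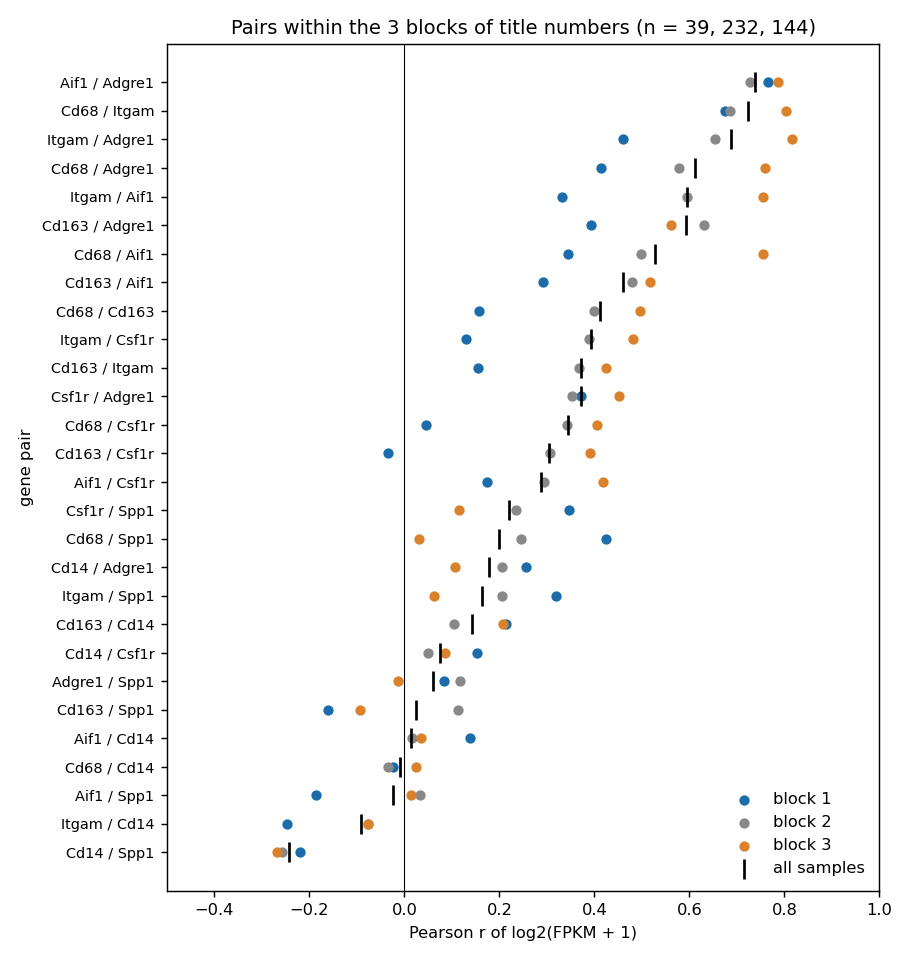
Pearson r of each of the 28 pairs within block 1 (n = 39) and the larger blocks 2 and 3, with a black tick for all samples; pairs are ordered by the pooled r. The upper pairs are positive in all 3 blocks, Spp1 with Cd68 goes from 0.42 in block 1 to 0.03 in block 3, and Spp1 with Cd14 is negative in all 3.

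A gene's correlation with the mean of the other 7 genes, each scaled to unit variance, placed each gene against the list. It was 0.79 for Adgre1, 0.68 for Itgam, 0.67 for Cd68, 0.61 for Aif1, 0.53 for Cd163, 0.46 for Csf1r, 0.08 for Spp1 and 0.01 for Cd14. Adgre1 stood closest to the rest of the list, and Spp1 and Cd14 stood near 0. The first principal component of the 8 genes held 44.6% of their variance and the second 16.8%. By these measures 6 of the 8 listed markers varied together, and Cd14 and Spp1 shared little of that variation.

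Against the table as a whole, the members ranked differently among all genes. For Cd68 the median r over all other genes was -0.02 and the 95th percentile 0.35, and Itgam, Adgre1, Aif1 and Cd163 lay above that percentile while Csf1r (0.34) lay just under it. For Aif1 the 95th percentile was 0.45, and Csf1r (0.29) was the lowest of the set, above 83.7% of genes. Spp1, outside the set, was above 87.5% of genes for Cd68 and 90.1% for Csf1r, so the edge of the set was not sharp. For Cd14 the median was -0.04 and the 95th percentile 0.30, and no other member lay above it. Cd14 and Spp1 had close partners elsewhere, with a highest r of 0.75 and 0.74 with a gene outside the list, so their low correlations with the set went with detectable correlations to other genes.

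**Figure D5:**
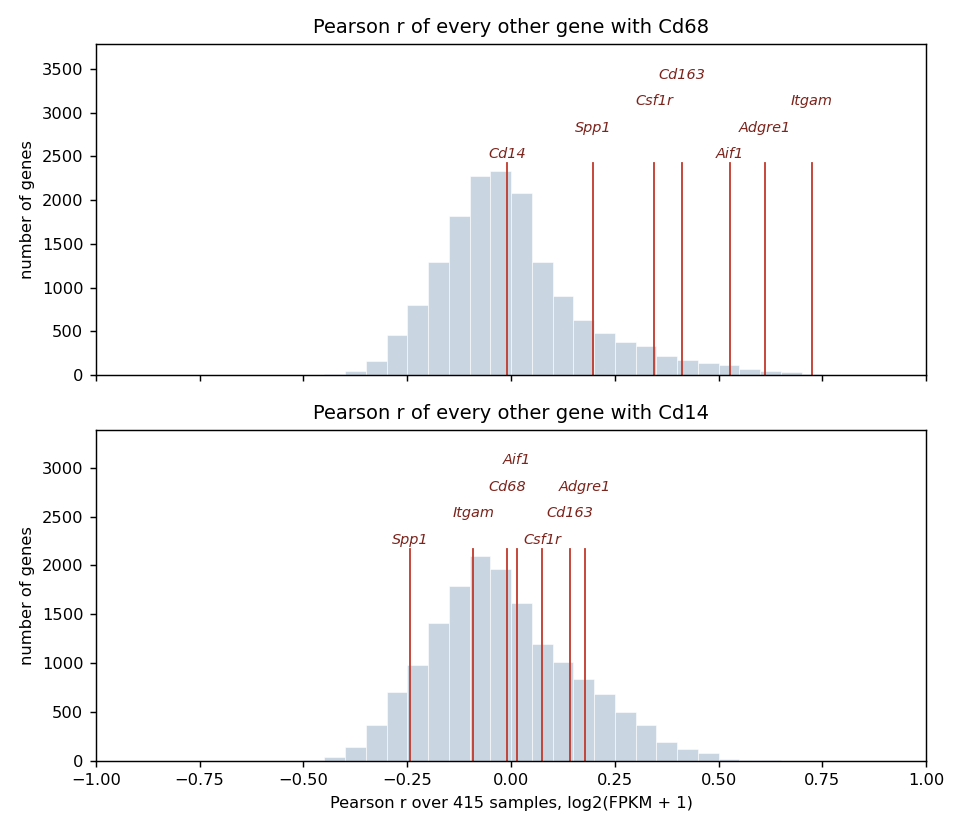
Number of genes by their Pearson r with Cd68 (upper) and with Cd14 (lower) over all samples, in bins of r, with red lines at the other 7 members. With Cd68, Itgam lies at 0.72 and Adgre1 at 0.61, in the upper tail; with Cd14 the 7 members lie between -0.24 and 0.18, inside the bulk of all genes.

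The share of genes with r above 0.5 differed between the members. Of 16130 genes, it was 2.85% for Aif1, 2.36% for Itgam, 1.79% for Cd68 and 1.69% for Adgre1. It was lower for Spp1 (0.893%), Csf1r (0.781%), Cd163 (0.688%) and Cd14 (0.279%). Of the 100 genes most correlated with each, Cd68 and Itgam shared 59, Aif1 and Adgre1 shared 57, and Cd163 and Adgre1 shared 44. The lists of Cd14 and of Spp1 shared 0 genes with that of any other member, but those of Csf1r and Aif1 also shared 0. The overlap between lists of unrelated genes was not computed. Csf1r shared 1 with Cd68, 1 with Itgam and at most 9, with Cd163, so that it co-varied with the set while its nearest genes were others.

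Outside the list, 390 of 16123 genes had r above 0.5 with the mean of the 8 scaled members and 4 had r below -0.5. The nearest were ENSRNOG00000016294 and ENSRNOG00000016826, each with r = 0.83 over all samples. Both kept r between 0.78 and 0.88 in the 3 blocks. The most opposite were ENSRNOG00000032395 and ENSRNOG00000011566, each with r = -0.54. The deposited table did not pair these identifiers with symbols, and no function is given for them.

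The 8 highest values lay in 6 libraries, 1 of which held 3 of them. The library titled 64024_3 had the highest level of Cd68 (89.6 FPKM), Itgam (35.04 FPKM) and Adgre1 (77.9 FPKM), and that titled 63944_5 had the second highest of the same 3 genes. Their Cd14 levels of 53.6 and 57.1 FPKM were under the Cd14 median. The libraries titled 60214_3 and 60214_5, which share a title number, had the 2 highest Aif1 levels (41.5 and 42.3 FPKM) and Cd163 levels of 111.7 and 107.2 FPKM. They held 2523551 and 2538904 reads and so were among the shallow samples. The highest Cd14 level lay in the library titled 57810_3, which was also shallow with 2617924 reads. The highest Csf1r level lay in that titled 62471_3.

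Read depth moved with several of these genes. With log2 reads as the regressor, limma called 3 of 8 members higher in deeper samples (Cd68, Itgam and Spp1) and 4 lower (Cd163, Aif1, Cd14 and Adgre1). Of all genes, 41.7% were called higher and 28.3% lower, so calls were common among all genes. The median Aif1 level was 34.4 FPKM in the 12 samples under 3500000 reads and 19.3 FPKM in the others, and that of Adgre1 was 60.8 against 39.2 FPKM. Cd163 had medians of 86.4 and 76.8 FPKM and Spp1 of 6.53 and 18.7 FPKM. For Adgre1, r with log2 reads was -0.16 (permutation p = 0.0016) but rho was -0.0061 (permutation p = 0.90), and without the 12 shallow samples its log2 slope was 0.11 and not called.

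For Aif1 the correlation with log2 reads was -0.30 (permutation p = 1e-05), while rho was -0.068 (permutation p = 0.16). The values of r within blocks were -0.46, -0.35 and 0.04, so that r was near 0 in block 3. None of the samples under 3500000 reads lay in block 3, and rho within blocks was -0.097, -0.067 and 0.049. For Cd14, r was -0.25 and rho -0.26, each with a permutation p of 1e-05, and r was -0.51, -0.21 and -0.32 in the blocks. Without the 12 shallow samples 4 members were called (Itgam, Spp1 and Csf1r higher, Cd14 lower), and Aif1 had an adjusted p of 0.94 in limma. The 21 called pairs remained 21 without these samples, and r of Cd68 with Aif1 was then 0.65. With log2 reads as a covariate 20 pairs were called, Cd163 with Cd14 being the pair lost at a limma adjusted p of 0.14.

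Order of the title number was followed by 1 of 8 members, which was lower at higher numbers, where limma called 30.5% of all genes lower and 31.3% higher. This gene, Aif1, was lower at higher numbers, by 0.29 on the log2 scale from the lowest to the highest rank (SE 0.04, limma adjusted p = 9.02e-10). Its r with the rank was -0.31 and its rho -0.29, each with a permutation p of 1e-05. The values within blocks were -0.11, -0.27 and -0.19, each smaller in size than the pooled one. In block 3, members not called over all samples had r of similar or larger size, namely -0.24 for Cd14, -0.23 for Cd68 and -0.21 for Csf1r. The median Aif1 level was 19.99 FPKM in block 1, 20.05 FPKM in block 2 and 18.3 FPKM in block 3. With quantile normalization 3 members followed the order, Cd14 and Cd163 being added.

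Samples with the same title number resembled each other in 5 of the 8 genes. This share was close to the 57.5% of all genes called by the limma F test between numbers. The comparison used the samples of the 89 title numbers that stood on more than 1 sample. Resemblance, the correlation of samples within a number, was 0.37 for Cd163 and for Aif1, 0.27 for Cd14 and for Csf1r and 0.24 for Adgre1, with limma adjusted p of 0.00023, 0.00020, 0.023, 0.018 and 0.010 in that order. It was 0.13 for Cd68, 0.088 for Itgam and -0.024 for Spp1, which were not called. The median over all genes was 0.23, near the values of Cd14, Csf1r and Adgre1. Spp1, the most variable member, thus had the lowest resemblance of the 8, while the steadier Cd163 was among the highest, and the difference between them was not tested.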

How the data were processed

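RNA of 415 rat adipose samples was sequenced, and the authors deposited 1 table of 18358 genes with no unit in its header. The submitters' processing notes name STAR, Picard, featureCounts and DESeq2; their settings, the genome build and the annotation are not given in the sources used here. The deposited values were found to be FPKM: every value equalled whole reads over a gene length (49 to 29464 bp) and over 1 factor per sample, which matched median-of-ratios size factors over 13665 genes. Whole reads were recovered for 100% of values within a tolerance of 1e-06, and for 100% of 9000 genes in simulated data. Levels are therefore scaled between samples by the authors.

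The analysis used log2(FPKM + 1) of 16131 genes with FPKM above 1 in at least 20% of samples. limma 3.58.1 (R 4.3.3) tested every gene on each member, on read depth, on the rank of the title number and between shared title numbers, two-sided, with Benjamini-Hochberg adjustment over all genes and a threshold of 0.05. Count models were not the main test for FPKM; voom, run on recovered reads, was tried as another setting. Correlations have two-sided permutation p-values from 100000 permutations, made for 28 pairs and for 16 relations with depth and title number. Intervals of r are 95% Fisher intervals. In simulated data with 16131 genes, the co-variation test found 99.5% of 200 genes with r of 0.3 and called 14 others. The shared-number test found 98.5% of 200 with a resemblance of 0.5 and called 13 others. Those other genes were drawn independently over genes and samples, unlike the real ones. Their counts therefore do not give the error rate in these data.

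Genes named were the 8 members and, by identifier, the 2 nearest and the 2 most opposite to their mean. The members and lists were chosen with earlier results of these data known. Lists of other cell types and of pathway partners were set by symbol and were not analysed here, since the RefSeq table used (GRCr8) paired 0 of the identifiers with a symbol; Leptin was also not analysed here. Leaving out the library titled 64199_4, and depth tested with plain totals or without shallow samples, were chosen after seeing the data.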

Additional observations from a re-analysis of the deposited data

How the results depend on the processing

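The count of 21 called pairs was 19 to 22 under 14 of the alternatives, and 16 in block 3. These 14 used all or most samples, block 2 or, with the title number as a factor, only samples that share a number. With the 39 samples of block 1 it was 3 (Cd68 with Itgam, Itgam with Adgre1 and Aif1 with Adgre1), where fewer samples were tested. The number of members following the title number went from 1 to 2 with the filter at 80% of samples (Adgre1 added), to 3 with quantile normalization (Cd14 and Cd163 added) and to 2 with log2 reads as covariate (Cd14 added). The number following depth went from 7 to 4 without samples under 3500000 reads, and with plain totals it was 7 with Csf1r added and Adgre1 lost (limma adjusted p = 0.086). The 5 members with same-number resemblance stayed at 5 in each of the 9 alternatives run. No paired analysis was possible because all samples form 1 group. The title number as a factor drew only on samples that share a title number, whose meaning was not given, and left 19 pairs called. It lost the calls of Cd68 with Spp1 (0.22), Cd163 with Cd14 (0.21) and Cd14 with Adgre1 (0.029), while Itgam with Cd14 (-0.31) was added. The first 2 correlations were no smaller than over all samples, but fewer samples were tested. Quantile normalization lost Cd163 with Cd14 (0.068) and Itgam with Spp1 (0.12) and added Cd163 with Spp1 (0.14) and Cd14 with Csf1r (0.21); the cause was not tested.

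Correlations that changed sign lay between -0.16 and 0.094 after the change. Cd68 with Cd14 was 0.043 with quantile normalization, 0.015 with plain totals, 0.022 with log2 reads as covariate and 0.024 in block 3. Itgam with Cd14 was 0.025 with quantile normalization. Aif1 with Cd14 was -0.051 with quantile normalization, -0.065 with log2 reads as covariate, -0.058 with the title number as a factor, -0.042 without shallow samples, -0.0092 on ranks, -0.0015 without the library titled 64199_4 and -0.015 without the 2 farthest samples. Aif1 with Spp1 was 0.0030 with voom, 0.034 with log2 reads as covariate, 0.094 with the title number as a factor, 0.032 in block 2, 0.015 in block 3 and 0.046 without shallow samples. Cd163 with Spp1 was -0.015 with 1 sample per title number, -0.16 in block 1 and -0.093 in block 3. Adgre1 with Spp1 was -0.015 in block 3 and Cd163 with Csf1r -0.035 in block 1. The log2 trend of Cd163 with the title number was 0.072 with quantile normalization, 0.038 with log2 reads as covariate, 0.028 without shallow samples and 0.0043 without the library titled 64199_4. Same-number resemblance of Spp1 was 0.0035 and the log2 slope of Adgre1 on depth 0.11 without shallow samples. The causes were not tested. The comparisons with leptin were not run. Depth limits Spp1 most where it is low, at 5 reads in its lowest sample.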
